A study of Mus musculus with 6 samples.

Results

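Mature dendritic cells (DC) grown from bone marrow with the p38 MAP kinase inhibitor SB202190 were compared with mature DC grown with its solvent DMSO. The comparison rests on 2 of the 6 arrays of the series, 1 for SB202190 and 1 for DMSO, and both were taken by their stage label. The other 4 arrays hold the same 2 treatments at 2 earlier stages and served for comparison. All cultures were of C57BL/6 marrow with GM-CSF at 20 ng/ml, with either SB202190, which the labels give as 1.5 mM (a unit not checked here), or 0.1% DMSO. The earlier stages were marrow cells cultured for 2 days (pre-DC) and the semi-adherent cells of day 7 (immature DC). To mature them, immature DC received TNF-a plus IL-1b, both at 10 ng/ml, for another 48 h. Whether SB202190 was still present in those 48 h is not stated, nor is the number of animals that gave the marrow.

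DC take up antigen while immature. On maturation they reduce uptake, raise costimulatory ligands that T cells need beside antigen, and gain the chemokine receptor CCR7, which guides them to lymph nodes. The kinase p38 lies downstream of TNF and IL-1 receptors and of microbial sensors, acts partly through the kinase MK2 on the stability of cytokine mRNAs, and is blocked by SB202190 at its ATP site. The arrays read mRNA, so neither kinase activity nor protein was measured.

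Levels are normalised intensities of 1 probe per gene, comparable between arrays for the same gene but not between genes. Of 19057 genes with a named probe, 8940 were measured, which here means a detection p under 0.01 on at least 1 of the 2 mature DC arrays. At a limit of 2-fold, 82 of them were higher with SB202190 (0.917%) and 86 lower (0.962%). At the limit of 1.5-fold, 484 were higher (5.41%) and 568 lower (6.35%). At any size 4288 were higher and 4639 lower. Counts of list members given below are to be read against these shares. The median log2 difference over all measured genes was -0.01. With 1 array a side there is no replicate error and no test within the pair, so a difference is stated as a difference between these 2 arrays.

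The chance of passing 2-fold depended on brightness. Of the 2080 genes with a mean level under 100, 4.28% differed by 2-fold or more in either direction, against 0.564% of the 2304 genes with a mean level of 1000 or above. The standard deviation of the log2 differences was 0.50 in the dim class and 0.29 in the bright class. Among the genes past 2-fold, 44 of the higher ones and 47 of the lower ones were detected on both arrays. For the rest the fold is a lower bound, written "at least N-fold", which sets the detected side against the lowest level at which any probe was detected on the other array. Sec14l4, a lower gene, was too dim for such a bound. Counts at a limit use the normalised levels, so a counted gene can have a bound under that limit. Without background correction the counts at 2-fold were 6 higher and 10 lower, the farthest from the counts above among the settings tried here.

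**Figure D1:**
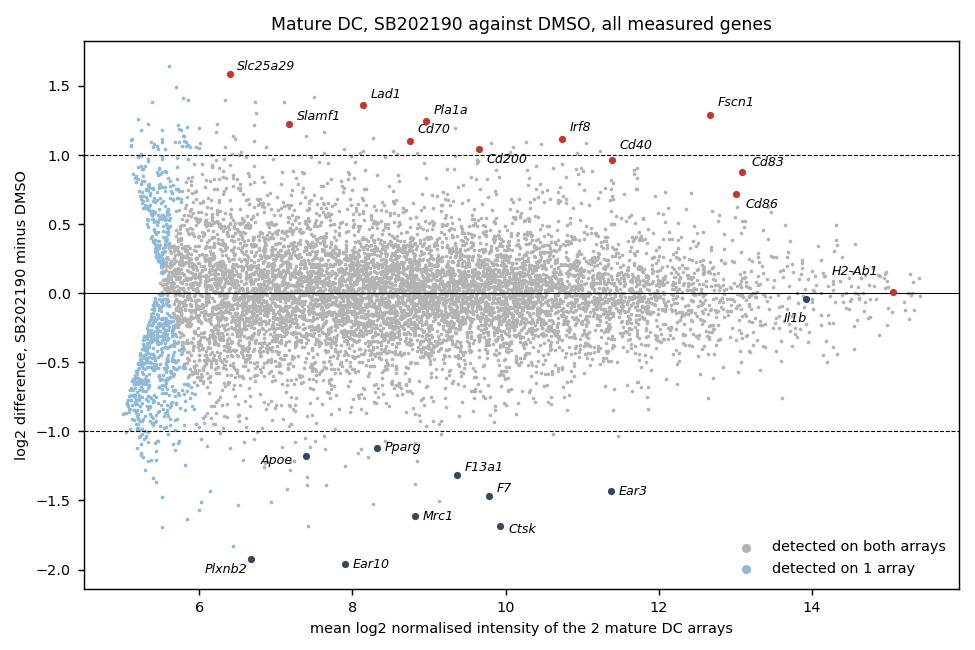
Log2 difference of each measured gene (vertical axis, SB202190 minus DMSO in mature DC, positive where higher with SB202190) against its mean log2 normalised intensity on the 2 mature DC arrays (horizontal axis), 1 point a gene, with lines at a 2-fold difference. The spread narrows from left to right, and Fscn1, Cd70, Irf8 and Slamf1 stand above the upper line while Ear10, Ctsk, Mrc1 and F7 stand under the lower one.

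Costimulatory genes were higher with SB202190 almost throughout, on a list chosen with earlier results of these data known. The counts that follow are therefore descriptions and no independent support. All 10 measured members of the list of costimulatory ligands and receptors had a higher level with SB202190, 8 of them by 1.5-fold or more and 0 lower by as much, and their median log2 difference was 0.84. Cd40, the receptor through which helper T cells license DC, had a level of 3753 with SB202190 and 1922 with DMSO (log2 difference 0.97, and between 0.60 and 0.97 over its 4 detected probes). Cd86, a ligand of the T cell receptor CD28, had 10550 with SB202190 and 6408 with DMSO, a log2 difference of 0.72 and of 0.60 to 0.81 over 3 probes. Cd83, a surface marker of mature DC, had 11780 with SB202190 and 6401 with DMSO (0.88). These 3 genes were among the brightest costimulatory members, where the spread of all genes is narrow.

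Cd80, the other CD28 ligand, had 1843 with SB202190 and 1065 with DMSO. Its 2 probes disagreed in size, at 0.79 and 0.09 on the log2 scale. Among ligands of the TNF family, Tnfsf4 (OX40 ligand) had 357.1 with SB202190 and 179.8 with DMSO, which is 1.99-fold, and Cd70, the ligand of CD27, had 629.6 with SB202190 and 293.3 with DMSO (2.15-fold). Slamf1, a self-binding receptor of the SLAM family, had 221.4 with SB202190 and 94.6 with DMSO (2.34-fold, with 2 probes at 0.74 and 1.23 on the log2 scale). The remaining members were dim: Cd48 had 114.4 with SB202190 and 75.1 with DMSO, Icosl had 104.4 with SB202190 and 72.3 with DMSO, and Tnfsf9 had 129.6 with SB202190 and 104.3 with DMSO. Tnfsf18, Tnfsf8 and Cd24a were below background on both arrays.

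The list of migration and maturation genes, chosen with the same knowledge of earlier results, went the same way. All 20 measured members were higher with SB202190, 10 by at least 1.5-fold and 0 lower by as much, with a median log2 difference of 0.63. Fscn1 encodes fascin, the actin-bundling protein of mature DC processes. Its level was 10210 with SB202190 and 4170 with DMSO, a 2.45-fold difference and the largest of the list. Ccr7 had 4360 with SB202190 and 2579 with DMSO (log2 difference 0.76). Ccl22 and Ccl17 encode chemokines that attract T cells bearing CCR4. The level of Ccl22 was 1045 with SB202190 and 589.2 with DMSO (0.83), and that of Ccl17 was 24140 with SB202190 and 17120 with DMSO (0.50). Thus the chemokine receptor and both chemokines were higher on the same array as the costimulatory genes.

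Other members of that list took the same direction in the bright range. Net1, an exchange factor for RhoA, had 2148 with SB202190 and 1143 with DMSO (0.91), and Marcksl1, an actin-linked membrane protein, had 3581 with SB202190 and 2059 with DMSO (0.80). Stat4, a transcription factor of IL-12 signalling, had 5059 with SB202190 and 3105 with DMSO (0.70). Birc2, an inhibitor of apoptosis that also acts in NF-kB signalling, had 3447 with SB202190 and 2041 with DMSO (0.76). The smallest shift among genes named here was that of Il4i1, an amino acid oxidase of mature DC, with 19360 with SB202190 and 16400 with DMSO (0.24). Serpinb9, Birc3, Spint2, Tmem123 and Laptm4b were below background.

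**Figure D2:**
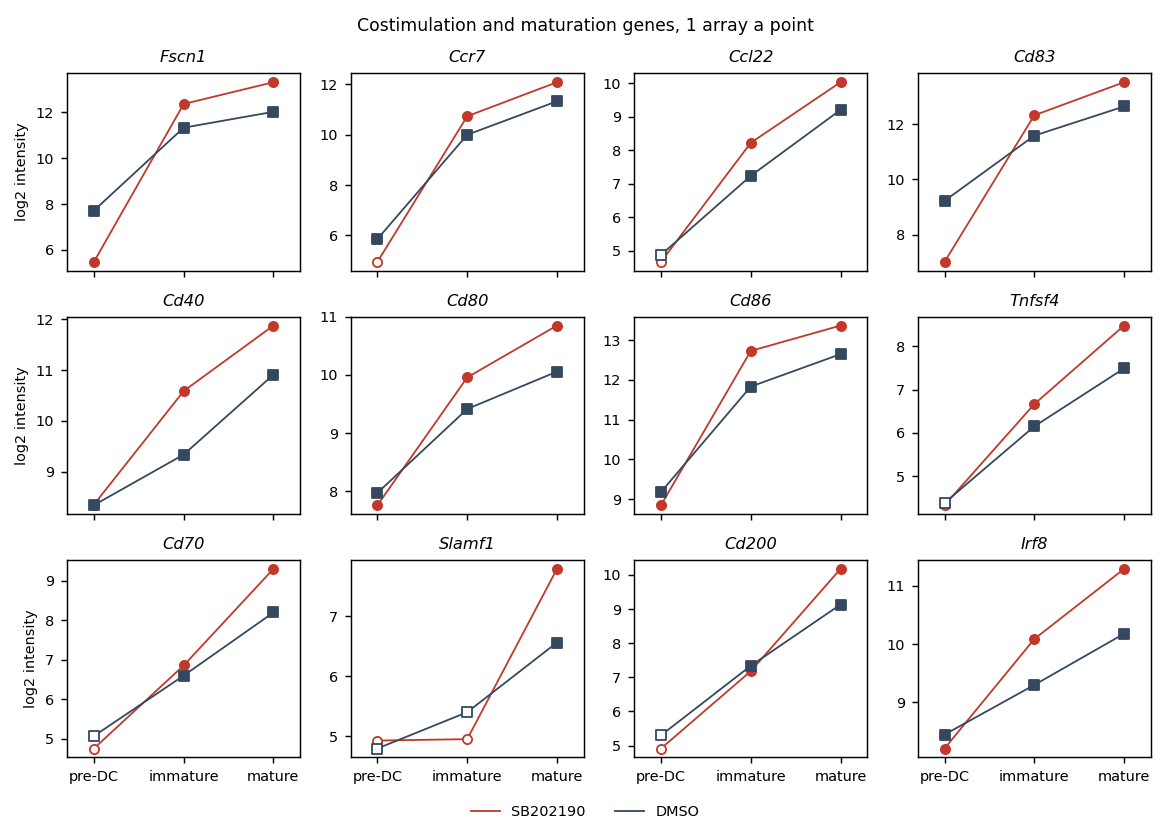
Log2 normalised intensity (vertical axis) of 12 genes at the 3 stages (horizontal axis), 1 array a point, circles for SB202190 and squares for DMSO, with open symbols where the probe was below background. In mature DC the SB202190 point lies above the DMSO point in all 12 panels. In pre-DC the DMSO point is the higher in all panels but Cd40 and Slamf1, by the most for Fscn1 and Cd83.

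Several transcription factors of the DC identity list were higher with SB202190. Irf8, Irf4, Mycl and Id2 were singled out after their values were seen. Irf8, required for cross-presenting and plasmacytoid DC, had 2512 with SB202190 and 1159 with DMSO (log2 difference 1.12). Irf4, which directs the conventional DC lineage that presents to helper T cells, had 3426 with SB202190 and 2141 with DMSO (0.68), and Mycl, which supports proliferation and function of conventional DC, had 799.3 with SB202190 and 503.5 with DMSO (0.67). Id2, which is also needed for DC development, was near even at 6911 with SB202190 and 7208 with DMSO (-0.06). Over the list of DC identity genes 13 of 16 measured members were higher and 3 lower, 7 by at least 1.5-fold higher and 1 lower, and the median was 0.54, or 0.23 when members below background are counted in. Their levels summed to 29870 with SB202190 and 23130 with DMSO, the direction of the costimulatory genes. Such sums over a list are weighted to its brightest members, and this one holds Ccr7 of the migration list. The part of the share of DC was not tested. The member lower by at least 1.5-fold was Clec9a, a receptor for actin exposed on dead cells, at 119 with SB202190 and 257.3 with DMSO (2.16-fold lower). Itgax, which encodes CD11c, was dim at 115.9 with SB202190 and 102.1 with DMSO. Flt3, Cd209a and Xcr1 were among 6 members below background on both arrays.

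Among the 15 highest genes were several with other roles in immune cells. Fcmr, the receptor for the Fc part of IgM, had 295.3 with SB202190 and 110.2 with DMSO (2.68-fold). Oasl1, a relative of the oligoadenylate synthetases induced by interferon, had 131.2 with SB202190 and 49.8 with DMSO, 2.64-fold, with its 2 probes at 1.04 and 1.40 on the log2 scale. Fyn, a kinase of the Src family, had 223.7 with SB202190 and 85.5 with DMSO (2.62-fold), and Pla1a, a phospholipase specific for phosphatidylserine, had 766.1 with SB202190 and 322.3 with DMSO (2.38-fold, with 3 probes between 0.88 and 1.48 on the log2 scale). Slc25a29, a mitochondrial carrier of basic amino acids, had 146.1 with SB202190 and 48.6 with DMSO (log2 difference 1.59). Lad1, a basement membrane filament protein, had 451 with SB202190 and 175.1 with DMSO (2.58-fold), and Plat, tissue plasminogen activator, had 168.7 with SB202190 and 68.2 with DMSO (2.47-fold). Kctd14 was 2.61-fold higher, with its 3 probes between 0.54 and 1.38 on the log2 scale. The bounds were at least 1.99-fold for Cdo1, 2.01-fold for Col4a1, 2.08-fold for Dennd2d, 2.17-fold for Ifi205, 1.56-fold for Pgam2 and 1.31-fold for Scfd2.

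Brighter genes past 2-fold, chosen after their values were seen, included Tmem176a, Adcy6, Ceacam15 and Slc22a23. Tmem176a, which encodes a membrane protein of antigen-presenting cells, had 3090 with SB202190 and 1452 with DMSO (log2 difference 1.09), with its other probe at 0.56. Adcy6, an adenylate cyclase, had 1307 with SB202190 and 616.5 with DMSO (1.08), with its other probe at 0.90. Ceacam15, of the carcinoembryonic antigen family, had 2050 with SB202190 and 971.4 with DMSO (1.08), and Slc22a23, an orphan transporter, had 977 with SB202190 and 427.2 with DMSO (1.19). All 4 were read well above background on both arrays. Just inside the 2-fold limit, Gnb4 had 543.9 with SB202190 and 271 with DMSO, and just outside it Tmod2 had 129.7 with SB202190 and 64.9 with DMSO. On the lower side, Arhgap15 had 76.1 with SB202190 and 152.5 with DMSO just inside the limit, and Cd300lg just missed it.

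NF-kB is the transcription factor family that drives much of DC maturation, so the 300-base promoter windows of RefSeq (assembly GRCm38.p6), which span the transcription start, were searched on both strands for the NF-kB consensus. Of the 82 genes at least 2-fold higher, 68 had a window and 15 of these held a match (22.1%). Among the 86 genes at least 2-fold lower, 74 had a window and 6 held one (8.11%). The share was 12.1% over all 7366 measured genes with a window and 9.55% over all 27025 genes of the promoter table. The AP-1 element TGANTCA was found in 7 of the 68 higher genes with a window (10.3%) and in 2 of the 74 lower ones (2.7%). Among measured genes with a window the share was 6.33%. For both motifs a gene counted if any of its windows held a match. A gene can have several windows (32851 windows for 27025 genes), which gives it more chances of a match. A match is a string of letters, and no binding was measured. The windows of Fcmr, Oasl1 and Tmem176a are printed as examples of genes past 2-fold, detected on both arrays, whose window holds a match, with the match in capitals, 5′ to 3′ on the gene's strand, which is the forward strand for all 3.
Fcmr: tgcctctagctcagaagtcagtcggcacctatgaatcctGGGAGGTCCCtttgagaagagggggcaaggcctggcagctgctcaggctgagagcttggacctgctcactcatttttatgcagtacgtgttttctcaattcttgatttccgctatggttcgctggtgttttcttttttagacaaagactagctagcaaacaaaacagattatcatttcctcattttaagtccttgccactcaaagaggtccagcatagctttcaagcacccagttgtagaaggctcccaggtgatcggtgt
Oasl1: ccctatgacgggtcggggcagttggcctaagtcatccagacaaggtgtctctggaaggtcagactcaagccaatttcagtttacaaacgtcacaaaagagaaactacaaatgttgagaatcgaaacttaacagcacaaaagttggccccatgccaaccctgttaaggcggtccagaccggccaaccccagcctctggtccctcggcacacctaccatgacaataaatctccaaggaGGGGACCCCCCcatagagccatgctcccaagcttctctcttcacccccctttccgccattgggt
Tmem176a: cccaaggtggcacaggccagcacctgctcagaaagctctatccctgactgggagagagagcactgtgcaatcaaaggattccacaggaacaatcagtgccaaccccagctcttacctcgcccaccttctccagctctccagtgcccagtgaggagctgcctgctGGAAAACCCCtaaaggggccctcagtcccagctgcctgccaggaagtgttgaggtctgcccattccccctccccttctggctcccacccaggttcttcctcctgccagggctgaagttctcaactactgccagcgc
These windows lie at chr1:130865527-130865826 for Fcmr, chr5:114922990-114923289 for Oasl1 and chr6:48841233-48841532 for Tmem176a. The match began 211 bases before the annotated start in Fcmr. In Oasl1 a pair of overlapping matches began 14 and 13 bases before it, and in Tmem176a the match lay 86 bases before the start on the opposite strand. None of these windows held the AP-1 element.

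Antigen presentation genes differed less than the costimulatory genes. Of the 15 measured MHC class II genes, 8 were higher and 7 lower with SB202190, 0 by at least 1.5-fold higher and 1 lower, and the median of 0.01 turned to -0.03 under 75th percentile scaling. H2-Ab1, a chain of the I-A molecule, had 34210 with SB202190 and 33990 with DMSO, a log2 difference of 0.01 that turned slightly negative under the same scaling. Cd74, the invariant chain, had 44860 with SB202190 and 41480 with DMSO (0.11). Ciita, the transcriptional master regulator of the class, had 1661 with SB202190 and 1136 with DMSO (0.55). Marchf1, a ubiquitin ligase that removes MHC class II and CD86 from the surface, was the member past 1.5-fold, with 677.8 for SB202190 and 1038 for DMSO (-0.62). The regulator was thus higher and the ligase lower on the SB202190 array, while the class II chains lay close together.

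In MHC class I presentation 15 of 18 measured genes were higher and 3 lower, 2 by at least 1.5-fold higher and 0 lower, with a median of 0.26. Nlrc5, the class I counterpart of CIITA, had 315.1 with SB202190 and 202.3 with DMSO (0.64). Tapbpl, a peptide editor related to tapasin, had 656.7 with SB202190 and 429 with DMSO (0.61), and Psmb9, an immunoproteasome subunit, had 5200 with SB202190 and 3634 with DMSO (0.52). The non-classical gene H2-M2 had 16510 with SB202190 and 21020 with DMSO (-0.35). A probe may read several of the near-identical H2 genes.

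Inhibitory and tolerogenic genes were divided. Of 17 measured members 11 were higher and 6 lower, 3 by at least 1.5-fold higher and 1 lower (median 0.15). Cd200, a ligand that restrains myeloid cells, had 1158 with SB202190 and 561.2 with DMSO, 2.06-fold and 0.73 to 1.46 on the log2 scale over 3 probes. Btla, an inhibitory receptor, had 331.5 with SB202190 and 180.9 with DMSO (0.87). Socs2, a suppressor of cytokine signalling, had 13690 with SB202190 and 8889 with DMSO (0.62, and 0.33 under an alternative setting). In the other direction, Vsir, which encodes the T cell inhibitor VISTA, had 400.8 with SB202190 and 675.1 with DMSO (-0.75), and Arg1, which consumes arginine, had 15810 with SB202190 and 22260 with DMSO (-0.49). Cd274, which encodes PD-L1, had 10290 with SB202190 and 8740 with DMSO (0.24). Il10 and Ido2 were below background.

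Cytokine genes showed little common shift. Of 18 measured members 6 were higher and 12 lower, 1 by at least 1.5-fold in each direction (median -0.09). These counts past 1.5-fold lie near the shares of all measured genes, 5.41% higher and 6.35% lower. Il1b had 15340 with SB202190 and 15760 with DMSO (-0.04). Tnf had 164.7 with SB202190 and 232.5 with DMSO (-0.50), Il6 had 116.1 with SB202190 and 83.4 with DMSO (0.48), and Il15, which sustains killer T cells, had 1626 with SB202190 and 1102 with DMSO (0.56). Its receptor chain Il15ra, of the maturation list, had 303.7 with SB202190 and 177.2 with DMSO (0.78), while its 5 detected probes ran from -0.49 to 0.80. Lif was at least 1.46-fold higher and Csf1, at a similar brightness, at least 1.45-fold lower. They are the members counted past 1.5-fold by normalised level, a limit that their bounds do not reach. Il12a was near even at 310 with SB202190 and 280.9 with DMSO, and Il23a, Il27 and Ifnb1 were below background on both arrays.

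Of 12 measured chemokine genes 8 were higher and 4 lower, and Ccl22 alone passed 1.5-fold. Over all measured genes 5.41% were higher by as much and 6.35% lower. Ccl5 had 27360 with SB202190 and 21350 with DMSO (0.36). Among 13 receptors of chemokines and growth factors 6 were higher and 7 lower, 3 by at least 1.5-fold higher and 2 lower. Cxcr5, the receptor for the follicle chemokine CXCL13, had 145 with SB202190 and 76.5 with DMSO (0.92), and Ccr6 was at least 1.55-fold higher. Ccr2, the receptor by which monocytes leave the marrow, had 308.9 with SB202190 and 561.5 with DMSO (-0.86, and -0.30 under an alternative setting). Kit had 1203 with SB202190 and 718.6 with DMSO, and its 2 probes disagreed in direction, at 0.74 and -0.10. Ltb4r1, a receptor of leukotriene B4 named after its values were seen, had 1973 with SB202190 and 4046 with DMSO (2.05-fold lower).

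The mRNAs of the p38 pathway itself were close to even. Of 17 measured members 10 were higher and 7 lower, 0 by at least 1.5-fold higher and 1 lower, and the median was 0.10. Mapk14, which encodes p38 alpha, had 1625 with SB202190 and 1765 with DMSO (-0.12). Mapkapk2, which encodes MK2, had 2452 with SB202190 and 2567 with DMSO (-0.07), and the upstream kinase gene Map2k3 had 2785 with SB202190 and 2909 with DMSO (-0.06). Zfp36, an mRNA-destabilising protein that MK2 phosphorylates, had 5213 with SB202190 and 3830 with DMSO (0.44), and Dusp1, a phosphatase of p38, had 4524 with SB202190 and 3338 with DMSO (0.44). Mef2c, a transcription factor phosphorylated by p38, was the member past 1.5-fold, at 48.7 with SB202190 and 76.0 with DMSO (-0.64), which is near background. The p38 genes Mapk11 and Mapk12 were below background.

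Immediate early genes and MAPK feedback genes went both ways. Of 15 measured members 5 were higher and 10 lower, 3 by at least 1.5-fold higher and 4 lower (median -0.14). The higher ones past 1.5-fold were Spred1, Dusp5 and Dusp2. Spred1, an inhibitor of Ras, had 1690 with SB202190 and 948.8 with DMSO (0.83), Dusp5, an ERK phosphatase, had 3101 with SB202190 and 1864 with DMSO (0.73), and Dusp2, another MAPK phosphatase, had 111.4 with SB202190 and 49.5 with DMSO (1.17). The lower ones past 1.5-fold were Fos, Egr1, Ier3 and Ier2, all early response genes. Fos had 341.9 with SB202190 and 565.3 with DMSO (-0.73), Egr1, named after its value was seen, had 255.5 with SB202190 and 410.1 with DMSO (-0.68), and Ier3 had 3853 with SB202190 and 6078 with DMSO (-0.66). Ier2 was below background on the SB202190 array and is counted by its normalised levels, while its bound was only at least 1.13-fold lower. Other members of both kinds were nearer to even: the ERK phosphatase gene Dusp6 had 1529 with SB202190 and 1688 with DMSO, Junb had 4441 with SB202190 and 4712 with DMSO, and Atf3 had 1119 with SB202190 and 1081 with DMSO.

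NF-kB members and targets leaned upward without any member at 1.5-fold in either direction: 17 of 22 were higher and 5 lower, with a median of 0.22. Signalling genes of the TNF and IL-1 receptors were even, with 10 of 19 higher and 9 lower and a median of 0.01 that turned to -0.02 when all probes of a gene were averaged. The member past 1.5-fold was Map3k14, the kinase of the non-canonical NF-kB route, at 3836 with SB202190 and 2329 with DMSO (0.72). In the interferon response 20 of 25 measured genes were higher and 5 lower, 5 by at least 1.5-fold higher and 0 lower (median 0.26, or 0.08 when members below background are counted in). Mx1, an antiviral GTPase, had 825.9 with SB202190 and 442.5 with DMSO (0.90), its relative Mx2 had 281 with SB202190 and 158.5 with DMSO (0.83), and Stat2 had 323.5 with SB202190 and 214 with DMSO (0.60). Oasl1 and Oasl2 (0.60) were the others. Ifit1, Oas1a and Cxcl10 were below background, so the list was measured in part.

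**Figure D3:**
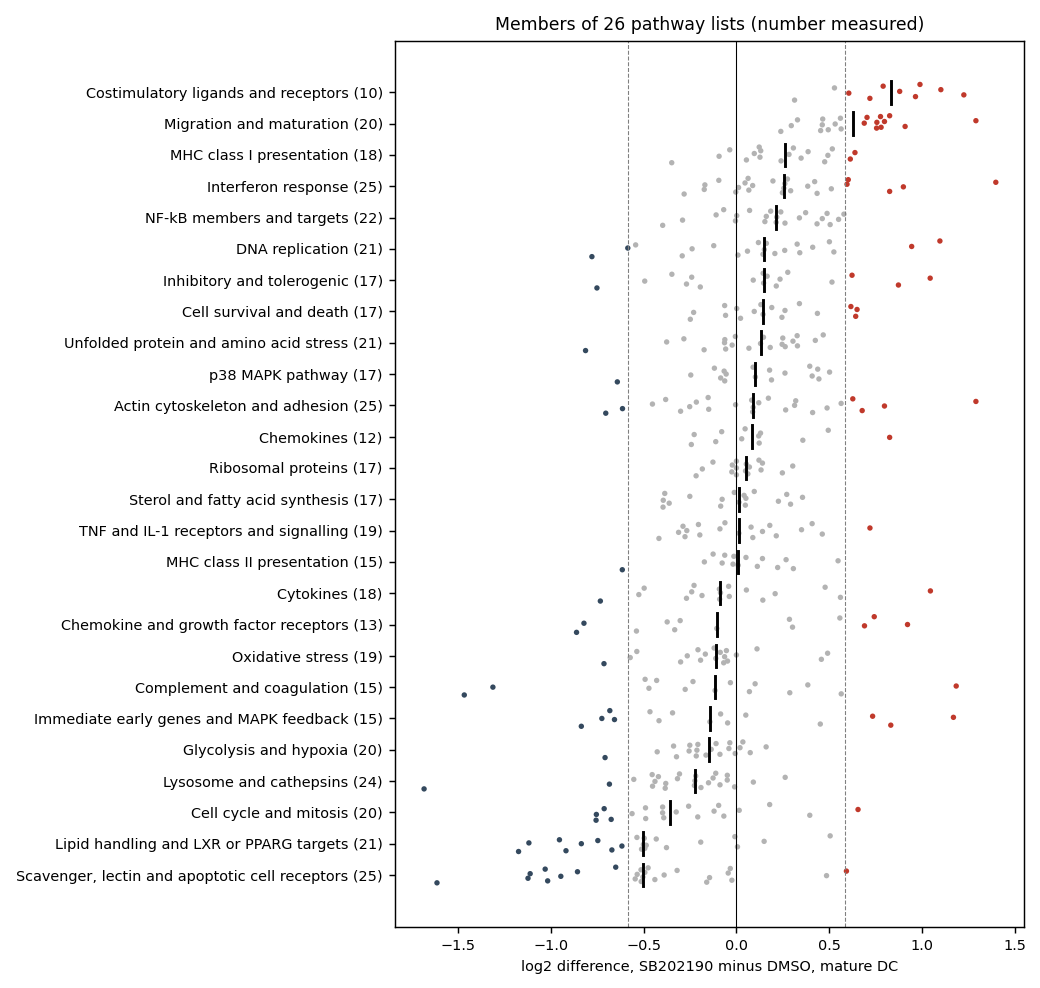
Log2 difference in mature DC (horizontal axis, SB202190 minus DMSO) of the measured members of the gene lists (rows), 1 point a gene, with a bar at the median of each list. Costimulatory and migration genes lie wholly to the right of 0, with medians of 0.84 and 0.63, and lipid and scavenger genes mostly to the left, each with a median of -0.50.

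Genes of lipid handling were lower with SB202190. Of 21 measured members 18 were lower and 3 higher, 8 by at least 1.5-fold lower and 0 higher, with a median of -0.50. The nuclear receptor gene Pparg, which directs lipid uptake and storage, had 216.3 with SB202190 and 469.9 with DMSO (2.17-fold lower). Nr1h3, which encodes the oxysterol receptor LXR alpha, had 89.8 with SB202190 and 169.8 with DMSO (1.89-fold lower), and the bound for Rxra, the partner of both, was at least 1.65-fold lower. All 3 genes of these heterodimers thus had their lower level with SB202190.

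Most target and effector genes of that list went the same way. Apoe, the apolipoprotein by which macrophages export cholesterol, had 112.2 with SB202190 and 253.3 with DMSO (2.26-fold lower). Vldlr, a lipoprotein receptor, had 78.0 with SB202190 and 130.8 with DMSO (-0.75), Abcd2, a peroxisomal fatty acid transporter, had 111.5 with SB202190 and 199.1 with DMSO (-0.84), and Mgll, monoglyceride lipase, had 557.8 with SB202190 and 888.4 with DMSO (-0.67). Lpl, lipoprotein lipase, was by far brighter, at 10390 with SB202190 and 14640 with DMSO (-0.49), and was named after its value was seen. Fabp5, a fatty acid binding protein, was an exception at 611.5 with SB202190 and 430.7 with DMSO (0.51). Abcg1 was even at 421.7 with SB202190 and 424.2 with DMSO (-0.01), Acadm was even (0.01), and Npc2 was slightly higher (0.15). Abca1, Cd36 and Fabp4 were below background. Sterol and fatty acid synthesis showed no such lean, with 9 of 17 higher and 8 lower, 0 past 1.5-fold and a median of 0.01 that turned to -0.02 under 75th percentile scaling.

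Uptake receptors formed the other large group of lower genes. Of 25 measured scavenger, lectin and apoptotic cell receptors 23 were lower and 2 higher with SB202190, 8 by at least 1.5-fold lower and 1 higher (median -0.50). Mrc1, the mannose receptor, had 257 with SB202190 and 787.1 with DMSO (3.06-fold lower). Fcgr4, an activating Fc receptor for IgG, had 188 with SB202190 and 409.6 with DMSO (2.18-fold lower), and Marco, a scavenger receptor, had 138.5 with SB202190 and 283.1 with DMSO (2.04-fold lower). Clec4b1, a C-type lectin of DC, had 1103 with SB202190 and 2234 with DMSO (2.03-fold lower), although probes may share signal within this lectin family. Stab1 (403.4 with SB202190 and 777.6 with DMSO) and Itgam (185.8 with SB202190 and 336.5 with DMSO) were lower as well, and Ly75, which encodes the antigen receptor DEC-205, was the higher one, at 426.6 with SB202190 and 282.8 with DMSO (0.59). These 3 were named after their values were seen. The 14 measured macrophage markers summed to 41210 with SB202190 and 51290 with DMSO on the same arrays. They share Mrc1, Marco, Cd14, Mertk, Msr1 and Fcgr1 with the uptake list, so the sum is no separate reading. Cd14 was the brightest of them, at 17300 with SB202190 and 22660 with DMSO. In bulk RNA, fewer cells of a kind and less RNA per cell cannot be told apart, and the part of cell composition in the lower uptake and lipid genes was not tested.

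Lysosomal genes shared the direction with smaller shifts. Of 24 measured members 22 were lower and 2 higher, 2 by at least 1.5-fold lower and 0 higher, with a median of -0.23. Ctsk, the collagen-degrading cathepsin K, stood apart at 544.7 with SB202190 and 1751 with DMSO (3.21-fold lower). Ctsd had 138 with SB202190 and 221.9 with DMSO (-0.68), and Ctsa had 3151 with SB202190 and 4624 with DMSO (-0.55). Among the brightest members, Psap, the precursor of the saposins, was even at 39780 with SB202190 and 40050 with DMSO, and the membrane protein gene Lamp1 had 11940 with SB202190 and 15580 with DMSO (-0.38).

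In the complement and coagulation list 6 of 15 measured genes were higher and 9 lower with SB202190, against 4639 lower of 8940 over all genes, and 1 was higher and 2 were lower by at least 1.5-fold (median -0.12). F7, coagulation factor VII, had 528 with SB202190 and 1460 with DMSO (2.77-fold lower), and F13a1, the A chain of factor XIII, had 417.9 with SB202190 and 1038 with DMSO (2.48-fold lower). F10 had 4146 with SB202190 and 5833 with DMSO (-0.49). In the other direction, Procr, the receptor of protein C, was at least 1.86-fold higher, and Serpinb2, an inhibitor of plasminogen activators, had 241.9 with SB202190 and 163.5 with DMSO (0.57). The complement genes C1qb and C1qc were near even at log2 differences of -0.03 and 0.07. Monocyte markers, which include F13a1 and share Cd14 and Csf1r with the macrophage markers, summed to 35900 with SB202190 and 46880 with DMSO over 11 measured genes. Their part in the lower F7 and F13a1 was not tested.

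The lowest gene of all was Ear10, a ribonuclease of the eosinophil-associated family, at 121 with SB202190 and 469.8 with DMSO (3.88-fold lower). The related Rnase2a had 95.4 with SB202190 and 306.3 with DMSO (3.21-fold lower) and Ear3 had 1623 with SB202190 and 4366 with DMSO (-1.43). Ear6, another member, had 213.2 with SB202190 and 196.7 with DMSO. These genes are near-identical in sequence, so a probe may read several of them. Prg2 and Epx, which encode granule proteins of eosinophils, were even or higher: Prg2 had 3649 with SB202190 and 3527 with DMSO (0.05, and -0.0047 under 75th percentile scaling), and Epx had 106.1 with SB202190 and 77.1 with DMSO. Siglecf, Il5ra and Ccr3 were below background.

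Several further genes completed the 15 lowest. Plxnb2, a semaphorin receptor, had 52.5 with SB202190 and 199.1 with DMSO (3.79-fold lower). Ccn2, connective tissue growth factor, was at least 3.47-fold lower. Prickle2, a planar cell polarity gene, had 181.8 with SB202190 and 523.4 with DMSO (2.88-fold lower), and Spink2, a serine protease inhibitor, had 332.6 with SB202190 and 941.8 with DMSO (2.83-fold lower). Atg9b and Nrbp2 were 2.90-fold and 2.85-fold lower, with SB202190 levels of 53.4 and 72.5. The bounds were at least 2.32-fold for Gfi1b, 2.31-fold for Actg2, 2.13-fold for Igf2bp3 and 1.73-fold for Igsf8. Rbms3 was at least 1.6-fold lower by the probe that stands for it and higher by its other probe (0.87), so it has no settled direction.

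**Figure D4:**
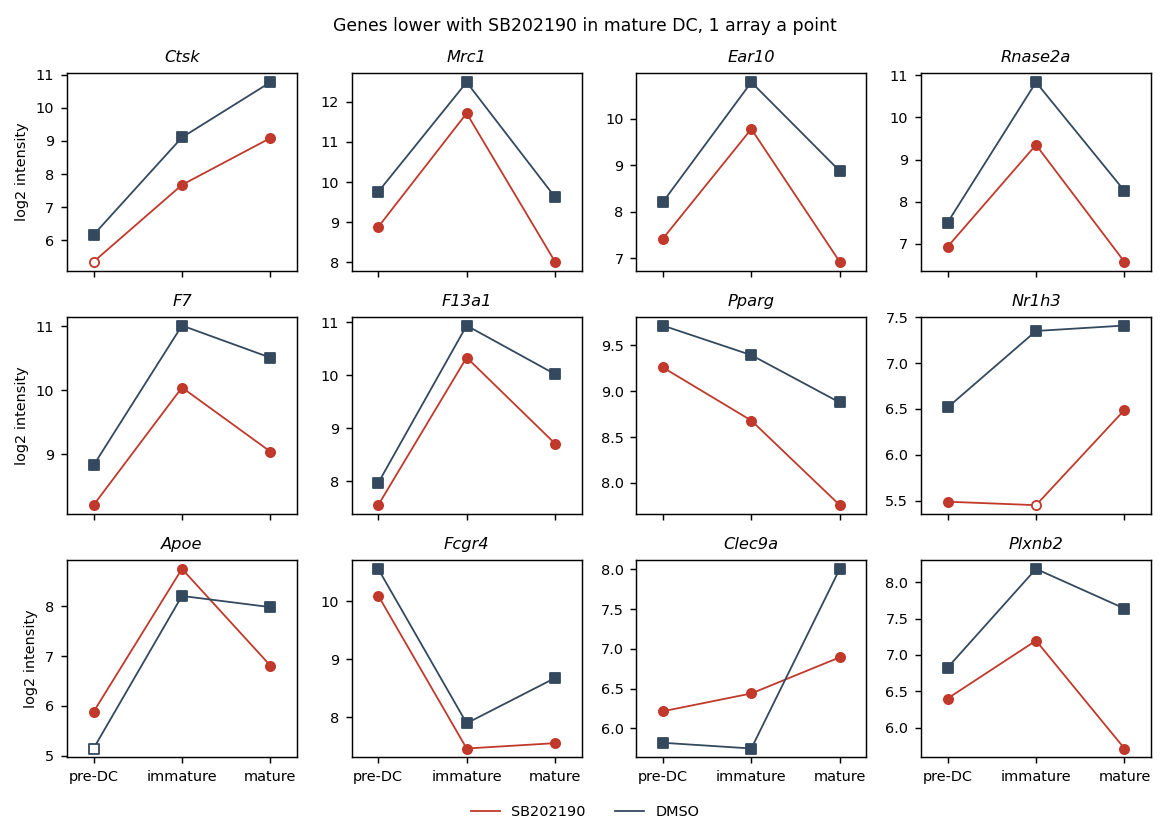
Log2 normalised intensity (vertical axis) of 12 genes lower with SB202190 in mature DC at the 3 stages (horizontal axis), 1 array a point, circles for SB202190 and squares for DMSO, with open symbols where the probe was below background. The SB202190 point lies under the DMSO point in mature DC in all 12 panels, and for Apoe and Clec9a it lies above it at both earlier stages.

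Mitotic genes leaned downward. Of 20 measured members of the cell cycle list 16 were lower and 4 higher, 4 by at least 1.5-fold lower and 1 higher (median -0.36, or -0.17 when members below background are counted in). Prc1, which bundles the microtubules of the spindle midzone, had 589.2 with SB202190 and 995.6 with DMSO (-0.76, and -0.32 under an alternative setting). The mitotic kinase gene Plk1 had 143.2 with SB202190 and 241.7 with DMSO (-0.76). Kif23 and Birc5, which act in cell division, had log2 differences of -0.71 and -0.68, Birc5 with probes from -0.68 to -0.29. The higher one was Ccnd2, cyclin D2, at 2545 with SB202190 and 1615 with DMSO (0.66). DNA replication genes did not share this lean, with 15 of 21 higher and 6 lower, 2 past 1.5-fold in each direction and a median of 0.15. Mcm6, a subunit of the replicative helicase, had 1096 with SB202190 and 569.5 with DMSO (0.94, and 0.49 or more on all 3 probes), and Pole, a DNA polymerase subunit, was at least 1.91-fold higher.

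Metabolic and stress genes shifted little. Over all measured genes 6.35% were lower by at least 1.5-fold, and the single members past that limit below lie near this share. In glycolysis and hypoxia 16 of 20 were lower and 4 higher, with 1 past 1.5-fold and a median of -0.15. That gene was Egln3, an oxygen-sensing hydroxylase, at 2507 with SB202190 and 4096 with DMSO (-0.71). Its 3 detected probes ran from -0.71 to 0.07, and their mean, -0.38, was under 1.5-fold. Among oxidative stress genes 15 of 19 were lower and 3 higher (median -0.11), and Hmox1, haem oxygenase, passed 1.5-fold at 985.9 with SB202190 and 1617 with DMSO (-0.71). In unfolded protein and amino acid stress 12 of 21 were higher and 9 lower (median 0.13), and Trib3 passed the limit downward at 109.9 with SB202190 and 193.1 with DMSO (-0.81, with its other probe at -0.36). Ribosomal proteins were even, with 9 of 17 higher and 5 lower, 0 past 1.5-fold and a median of 0.05.

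Survival genes leaned upward on both sides of the death decision. Of 17 measured members 13 were higher and 4 lower, 3 by at least 1.5-fold higher and 0 lower (median 0.14). The protective gene Bcl2l1 had 200 with SB202190 and 127.4 with DMSO (0.65, with its other probe at 0.36), whereas the killers Bak1 and Pmaip1 had log2 differences of 0.64 and 0.62. Actin and adhesion genes numbered 15 higher and 10 lower of 25, with Fscn1, Marcksl1, Rgs1 and Itga4 past 1.5-fold higher (Itga4 by 1 of its 2 probes, the other being at -0.74) and Lmna (818.9 with SB202190 and 1334 with DMSO) and Itgb5 (483.2 with SB202190 and 739.6 with DMSO) lower by as much.

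Markers of other cell types were read on the same 2 arrays. Cd79b, Ms4a1 and Pax5 of B cells, Cd3d, Cd3e and Cd3g of T cells, and Ncr1 of NK cells were below background. So were Siglech of plasmacytoid DC, Gata1 and Hba-a1 of erythroid cells, and Col1a1 of stroma. Other members of these lists were read well above background. Il7r of the T cell list had 3919 with SB202190 and 2758 with DMSO, and Cd8b1 had 1161 with SB202190 and 1204 with DMSO. Tcf4 of the plasmacytoid DC list had 2621 with SB202190 and 2145 with DMSO. Blnk of the B cell list had 484.5 with SB202190 and 472.3 with DMSO. Whether cells of these lineages were present was not tested. Of the marker lists, 3 of 17 B cell genes, 4 of 14 T cell genes, 3 of 13 NK cell genes, 7 of 14 plasmacytoid DC genes, 2 of 15 erythroid genes and 6 of 16 stromal genes were measured. Their medians over so few genes were 0.04, 0.43, 0.25, 0.25, 0.77 and 0.10 in that order; the lowest under another detection filter were -0.14, 0.04, 0.09, -0.02, 0.08 and -0.16 in that order.

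Myeloid lineages were measured more fully. Of 14 macrophage genes 10 were lower and 4 higher with SB202190 (median -0.31, or -0.16 when members below background are counted in), and of 11 monocyte genes 10 were lower and 1 higher (median -0.39). Csf1r, the receptor of macrophage growth factor, had 4587 with SB202190 and 5660 with DMSO. Csf1r and Cd14 are in both the macrophage and the monocyte list. Levels of 20 neutrophil genes summed to 33700 with SB202190 and 31590 with DMSO (6 higher, 14 lower, median -0.04), and S100a8 was even at 10600 with SB202190 and 10720 with DMSO. Those of 7 eosinophil genes summed to 5858 with SB202190 and 8992 with DMSO, with a median of 0.05 that turned to about 0 under 75th percentile scaling and a mean of -0.63, Ear10, Rnase2a and Ear3 being the lowest members.

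Mast cell genes summed to 2982 with SB202190 and 2185 with DMSO (6 of 8 higher, median 0.21), and 5 progenitor genes to 2156 with SB202190 and 1368 with DMSO (4 higher, 1 lower, median 0.76, and 0.01 without the detection filter). Kit and Gata2 are in both lists, so the sums are not separate readings. Kit weighed most in both differences, at 1203 with SB202190 and 718.6 with DMSO, and its probes disagreed in direction, as said above. Gata2 had 247.4 with SB202190 and 124.8 with DMSO (0.99), while Cd34 and Flt3 of progenitors and Mcpt8 of basophils were below background.

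**Figure D5:**
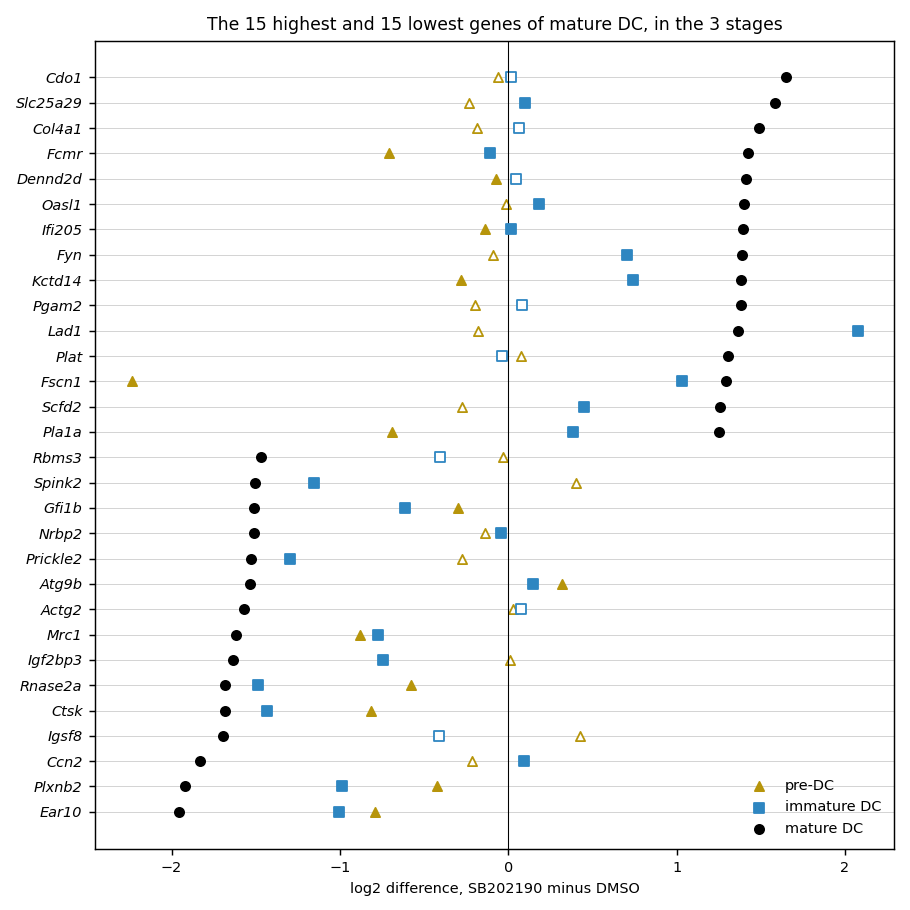
Log2 difference SB202190 minus DMSO (horizontal axis) of the 15 highest and 15 lowest genes of mature DC (rows), with a triangle for pre-DC, a square for immature DC and a circle for mature DC, 1 pair of arrays a symbol, open where the probe was below background on both arrays of the pair. Ctsk, Ear10, Rnase2a, Mrc1 and Plxnb2 lie under 0 at all 3 stages, and Fscn1 is far under 0 in pre-DC (-2.24) and above 0 afterwards.

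The same treatment contrast was made at the earlier stages with separate arrays. Fewer genes passed the limits there. In immature DC 52 of 8945 measured genes were at least 2-fold higher with SB202190 (0.581%) and 46 lower (0.514%), and at 1.5-fold 387 were higher (4.33%) and 393 lower (4.39%). In pre-DC 14 of 8882 were at least 2-fold higher (0.158%) and 40 lower (0.45%), and at 1.5-fold 172 were higher (1.94%) and 221 lower (2.49%). Of the 82 genes at least 2-fold higher in mature DC, 25 were also at least 1.5-fold higher in immature DC and 2 lower by as much, while 1 was higher and 11 lower in pre-DC, genes with 1 side below background included. Of the 86 lower genes, 27 were also at least 1.5-fold lower in immature DC and 1 higher, while 9 were lower and 2 higher in pre-DC.

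Whether the mature DC pair departed from the others was tested in 1 model over all 6 arrays, which sets the mature DC difference against the mean of the 2 earlier differences with limma and 1 residual degree of freedom. It called 0 of 9221 genes (0%) at an adjusted p under 0.05. The smallest adjusted p was 0.691, and an unadjusted p under 0.05 was reached by 649 genes. The error of the test is the distance between the pre-DC and immature DC differences, moderated over all genes. A difference particular to mature DC was therefore not shown for any single gene, and the stage values that follow are descriptions.

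The costimulatory list had medians of 0.01 in pre-DC, 0.40 in immature DC and 0.84 in mature DC, with 0, 3 and 8 members at least 1.5-fold higher. Cd40 had 327.6 with SB202190 and 325.1 with DMSO in pre-DC, 1538 with SB202190 and 647.4 with DMSO in immature DC, and the mature levels given above. Cd86 had 6778 with SB202190 and 3639 with DMSO in immature DC. Cd70 and Slamf1 were near even or below background until maturation: Cd70 had 116 with SB202190 and 97.1 with DMSO in immature DC, and Slamf1 was below background on all 4 earlier arrays. Likewise Cd200 had 144.9 with SB202190 and 161.7 with DMSO in immature DC, before its 2.06-fold difference in mature DC.

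Migration genes had medians of -0.13 in pre-DC, 0.63 in immature DC and 0.63 in mature DC. Fscn1 went against its mature direction in pre-DC, with 44.6 for SB202190 and 210.5 for DMSO, and had 5285 with SB202190 and 2580 with DMSO in immature DC. Cd83 had 128.8 with SB202190 and 596.8 with DMSO in pre-DC, and 5126 with SB202190 and 3075 with DMSO in immature DC. Irf8 had 294.7 with SB202190 and 347.9 with DMSO in pre-DC, and 1088 with SB202190 and 628.8 with DMSO in immature DC. These 3 genes thus had their higher level with SB202190 in immature DC, before TNF-a and IL-1b were added, and with DMSO after 2 days of culture.

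The lower genes had other stage patterns. Ctsk had its lower level with SB202190 at every stage: 40.9 (below background) with SB202190 and 71.8 with DMSO in pre-DC, 204.4 with SB202190 and 551.6 with DMSO in immature DC, and the 3.21-fold difference of mature DC. Nr1h3 had log2 differences of -1.03 in pre-DC and -0.92 in mature DC and was at least 3.70-fold lower in immature DC, where the SB202190 array was below background. Pparg had log2 differences of -0.46, -0.71 and -1.12 at the 3 stages in order. Mrc1 had 3366 with SB202190 and 5765 with DMSO in immature DC. Apoe and Clec9a did the opposite before maturation: Apoe had 431.5 with SB202190 and 296.1 with DMSO in immature DC, and Clec9a had 86.8 with SB202190 and 53.7 with DMSO there. Over the lists, the medians at the 3 stages in order were -0.20, -0.35 and -0.50 for lipid handling and -0.19, -0.24 and -0.50 for uptake receptors.

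Some lists had medians farther from 0 in immature DC than in mature DC. DNA replication had a median of -0.51 in immature DC with 9 of 23 members at least 1.5-fold lower and 0 higher, against 0.15 in mature DC. The cell cycle list had -0.58 in immature DC, with 10 of 23 lower by as much. Sterol synthesis had -0.33 and chemokines -0.33 in immature DC, and MHC class II genes had 0.26, with 5 of 15 at least 1.5-fold higher. Of these lists, the cell cycle list alone kept a median past 0.3 in mature DC.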

How the data were processed

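RNA from 6 cultures, 1 for each of 3 stages and 2 treatments, was hybridised as biotin-labelled cRNA to single-colour Illumina bead arrays of 45281 probes. The authors deposited intensity values that were not normalised, and beside each, per the file headers, its detection p-value. They also deposited processed intensity values, which are linear, reach down to -51.1 and rank the probes of each array as its unnormalised values do; no source used here gives their method. They were used as an alternative, with a floor of 16.

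Intensities of all 6 arrays were corrected for background by normexp, fitted through the detection p-values (function nec of limma 3.58.1, R 4.3.3) with an offset of 16, then quantile normalised and put on the log2 scale. The platform annotation gave 34885 probes 1 symbol and 18 several, which were not named, and 10378 probes are unnamed here. Symbols were checked through Entrez identifiers against RefSeq (99.8% found, 0 changed). Where a gene had several probes (9172 genes), the brightest on average over the 6 arrays was used. Genes with a detection p under 0.01 on at least 1 mature DC array were counted at 2-fold and 1.5-fold, including those below background on the other array. The number of arrays limits precision: nothing is replicated within a stage. Detected probes numbered 14623 on the mature SB202190 array and 15266 on the mature DMSO array, and between 15120 and 15328 on the others. The mature pair correlated at 0.985 on the log2 scale.

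The mature DC difference was tested against the mean of the pre-DC and immature DC differences with limma (9221 genes detected on at least 2 arrays, 1 residual and 3.44 prior degrees of freedom, Benjamini-Hochberg, adjusted p under 0.05), after the step was tested on simulated data. The labels do not call the cultures independent, so the p-values measure only the spread between these arrays.

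The 39 gene lists held 864 entries, 783 with a named probe and 589 measured. Members and lists were chosen with earlier results of these data known. Named genes were the 15 highest and 15 lowest with the same sign in the authors' processed values, every measured member of the costimulatory, inhibitory, MHC class II, cytokine, p38 and migration lists, up to 5 members with the largest difference from each other pathway list, and up to 3 of the brightest and the background members from each marker list; the rest were named after their values were seen, whether or not the text says so beside them (among them Vldlr, Mgll, Fabp5, Ier3, Dusp6, Junb, Atf3, H2-M2, Itgb5, Itgax, Ear6, Epx, C1qb, C1qc, Psap and Lamp1). Alternatives changed the background correction, normalisation, probe rule, detection filter, source of values and moderation.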

Additional observations from a re-analysis of the deposited data

Results flagged for a closer look

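In 7 named genes above background on both arrays of both pairs, the SB202190 minus DMSO log2 difference of mature DC was opposed, by at least 1.5-fold, at an earlier stage. With pre-DC given after mature DC, the values were 0.8804 and -2.2123 for Cd83, 1.2914 and -2.238 for Fscn1, 1.1247 and -0.7887 for the carbonic anhydrase Car2, 1.422 and -0.711 for Fcmr, and 0.6784 and -0.6182 for the adhesion molecule Vcam1. With immature DC given after mature DC, they were -1.1122 and 0.6927 for Clec9a, and 0.6505 and -0.6119 for Bcl2l1. Each value comes from 1 pair of arrays. Under alternative settings the mature DC value shrank to 0.1027 for Vcam1, 0.2186 for Bcl2l1, 0.5687 for Car2 and -0.4181 for Clec9a, all under 1.5-fold. The difference between a single pair of stages was not tested. Against the mean of both earlier stages, the adjusted p of limma lay between 0.691 and 0.783 for these genes.

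In 4 further genes the opposed direction rests on a bound. In pre-DC, Ccr7 was at least 1.35-fold and Pla1a at least 1.56-fold lower with SB202190, and Apoe at least 1.36-fold higher, each against its direction in mature DC. Pole was at least 1.91-fold higher with SB202190 in mature DC and had a log2 difference of -0.73 in immature DC.

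Probes that carry no gene name here were counted in the same way. Of 2182 such probes measured in mature DC, 16 were at least 2-fold higher with SB202190 and 16 lower. Both are smaller shares than those of the measured named genes, 0.917% higher and 0.962% lower. The units differ, because unnamed probes were counted singly and named genes by their brightest probe. The brightest of the extreme ones were ILMN_2954474, with 884.9 for SB202190 and 279.7 for DMSO, and ILMN_2868480, with 492.5 for SB202190 and 1704 for DMSO.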

How the results depend on the processing

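Against 82 genes at least 2-fold higher and 86 lower with SB202190, the counts were 6 higher and 10 lower without background correction, 18 and 28 with an offset of 50, 34 and 50 with all probes of a gene averaged, and 44 and 47 with detection required on both arrays. The higher count was 51 with 75th percentile scaling and 54 with quantile normalisation of the mature pair alone. Against 484 higher and 568 lower at 1.5-fold, they were 136 and 127 without background correction, 256 and 257 with an offset of 50, and 311 and 341 with averaged probes, and the lower count was 321 with detection on both arrays. A larger offset shrinks the differences of dim genes and the stricter filter tests fewer genes; the cause of the other shifts was not tested. The other counts stayed within 1.5 times, and all 7 alternative fits of the test between stages called 0 genes (551 to 708 at an unadjusted p under 0.05).

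Of the 245 named genes, 8 with a log2 difference under 0.25 turned in sign under some alternative, H2-Ab1 and Prg2 among them, and 0 past 1.5-fold did. The size of the difference was less stable than its sign. It moved by more than 1.5-fold for 29 named genes without background correction, 13 with averaged probes and 7 with an offset of 50. The medians of stromal markers (0.1006) turned to -0.0021 with averaged probes, -0.0792 without a detection filter and -0.1594 at a detection p of 0.05, and that of plasmacytoid DC markers (0.2485) to -0.0151 without the filter; that of B cell markers (0.04) went to -0.14 at a detection p of 0.05. Without the filter, which adds members below background, the medians were 0.23 for DC identity, 0.08 for interferon, 0.08 for erythroid, 0.04 for T cell, 0.03 for unfolded protein, -0.17 for cell cycle, -0.16 for macrophage and 0.09 for NK cell genes. The medians ran from 0.70 to 0.86 for costimulatory genes, 0.54 to 0.69 for migration genes, -0.55 to -0.36 for lipid genes and -0.54 to -0.40 for uptake receptors. No paired analysis was possible because each group is 1 array. No replicate could be left out for the same reason, and the mature against the immature pair alone leaves no residual degree of freedom, so it was not tested.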

Other observations

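Genes past 2-fold that belong to none of the groups described were read after their values were seen. Of the genes lower with SB202190, Gpx3, a secreted glutathione peroxidase, had 95.3 with SB202190 and 221.9 with DMSO. Ramp1, a partner of the receptor for calcitonin gene-related peptide, had 279.5 with SB202190 and 729.5 with DMSO, and Flt1, a receptor of VEGF, had 74.4 with SB202190 and 177.8 with DMSO. The endosomal RNA sensor Tlr8 had 126.4 with SB202190 and 264.9 with DMSO, and Fcrls, a receptor-like gene of macrophages and microglia, had 309.5 with SB202190 and 655.9 with DMSO, with all 3 of its detected probes between -1.77 and -1.08 on the log2 scale. Among the genes higher with SB202190, Il31ra, a chain of the IL-31 receptor, had 160 with SB202190 and 68.8 with DMSO, and Dock9, an exchange factor for Cdc42, had 129.4 with SB202190 and 58.7 with DMSO, with its 2 probes at 1.03 and 1.14. Chst3, a chondroitin sulfotransferase, had 248.4 with SB202190 and 113 with DMSO, with its 2 probes at 1.14 and 1.16.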
